A study of Mus musculus with 3 samples.

Results

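Kit, Flt3 and Cd34 are 3 genes for surface proteins of early progenitors, and they were followed here cell by cell in sorted mouse thymocytes, together with Il2ra, the gene for CD25. The members were the rows of each count matrix that carried these symbols, which is 3 genes of the 28692 listed in the first and second runs and of the 32285 listed in the third. Cells were kept when they had 500 to 5000 detected genes and at most 7% mitochondrial counts, which left 5516, 8852 and 7511 cells. A UMI (unique molecular identifier, 1 counted RNA molecule) of at least 1 of the 3 genes was found in 229, 1119 and 1509 of these cells.

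Thymocytes came from C57BL/6 mice aged 6 weeks, with 4 thymi pooled for each sample, and cells bearing CD4 or CD8 were removed with magnetic beads before sorting. All 3 sorts also gated out B220, CD11b, CD11c, NK1.1 and TCRβ. The first run, DN + gammadelta, held all CD4- CD8- double negative (DN) thymocytes together with TCRγδ+ cells. The second run, DN1 + DN2, held CD44+ cells with or without CD25. The third run, DN1 + DN2 + DN3 + gammadelta, held DN1 and DN2, DN3 (CD25+ CD44-) and TCRγδ+ cells that were sorted apart and mixed afterwards. Each sort was sequenced as a single library, so differences between runs had no replicate check. The paper names alternative versions of the library kit and of the counting software, and alternative sequencers, without matching them to runs. The sort, the mixing, the depth and these technical settings cannot be told apart, and thinning to equal depth does not separate them.

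Kit is the receptor for stem cell factor and Flt3 the receptor for Flt3 ligand. Both are receptor tyrosine kinases that support the survival and growth of hematopoietic progenitors, and Cd34 is a sialomucin on stem and progenitor cells. In the textbook order of thymic development, progenitors that seed the thymus carry Kit and may carry Flt3 and Cd34, Flt3 is lost early, CD25 appears at the DN2 stage, and Kit falls as cells commit to the T lineage.

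The 179 to 250 bases just upstream of each gene are shown because the 3 RNAs were highest in the same cluster of cells in the second and the third runs, as described further on. They are RefSeq sequences of build GRCm38.p6, written 5′ to 3′ on the strand of the gene, with capitals on the letters GAGGAA, a core bound by PU.1 (the product of Spi1) and other Ets factors. The Kit sequence is chr5:75574737-75574915 on the plus strand, the Flt3 sequence is chr5:147400490-147400739 on the minus strand, and the Cd34 sequence is chr1:194938571-194938818 on the plus strand.
Kit: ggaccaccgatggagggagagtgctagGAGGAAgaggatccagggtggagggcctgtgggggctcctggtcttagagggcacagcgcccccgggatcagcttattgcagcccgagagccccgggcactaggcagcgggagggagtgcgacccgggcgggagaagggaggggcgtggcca
Flt3: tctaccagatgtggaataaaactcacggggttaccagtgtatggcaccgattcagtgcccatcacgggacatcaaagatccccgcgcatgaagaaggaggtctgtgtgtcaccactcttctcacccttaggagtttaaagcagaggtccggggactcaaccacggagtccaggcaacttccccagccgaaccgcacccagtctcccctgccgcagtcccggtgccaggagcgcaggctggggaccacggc
Cd34: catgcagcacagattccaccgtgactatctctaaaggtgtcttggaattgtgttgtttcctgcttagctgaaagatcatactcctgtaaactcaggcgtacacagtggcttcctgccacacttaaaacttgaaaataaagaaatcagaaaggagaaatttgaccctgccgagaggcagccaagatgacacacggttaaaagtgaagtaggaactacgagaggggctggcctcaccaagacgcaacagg
The 250-base windows were searched on both strands for these letters, for TGTGGT, which Runx factors bind, for the E box CAGCTG, and for the TATA box with the letters TATAAA. The letters in capitals were found 1 time before Kit, and 23.25% of 32851 promoters held them. The other motifs were not found before Kit, and none of the 4 before Flt3 or Cd34. These letters were held by 14.05% of promoters for the Runx letters, 13.0% for the E box and 12.4% for the TATA box. The GC content was 70.8% for Kit, 59.2% for Flt3 and 46.4% for Cd34, against a median of 52.4% over all promoters. A match of these letters is a description of the sequence and not evidence of binding.

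In the GENCODE annotation of GRCm38, Kit lies at chr5:75574916-75656722 on the plus strand, Flt3 at chr5:147330741-147400489 on the minus strand, Cd34 at chr1:194938819-194961279 on the plus strand, and Il2ra at chr2:11642807-11693193 on the plus strand. Gm26597 overlaps Flt3 and Gm16897 overlaps Cd34 on the opposite strand, while Gm37881 overlaps Il2ra on the same strand, so reads in the shared stretch of Il2ra cannot be assigned with certainty.

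The runs differed in depth, which sets how often a rare RNA is seen. Kept cells of the 3 runs, in order, had medians of 5989.5, 4844 and 8507 UMIs. Shares are therefore given with all UMIs and again after each cell was thinned at random to 2000 UMIs, which left out 0, 0 and 48 cells below that depth. Intervals on shares (exact Clopper-Pearson, 95%) and on levels (CPM, the UMIs of a gene relative to all UMIs of the cells, exact Poisson, 95%) cover counting error only, and the limit given for 0 cells is 3 counts of the total. Among all deposited barcodes, before the cell limits, the first and second runs shared 72, the first and the third 3, and the second and the third 0. T lineage RNA was present in all 3 runs, with Cd3e, a chain of the CD3 complex, at 464.6, 716.6 and 502.8 CPM in cells without a Kit UMI. Cells called NK-type here (at least 2 Nkg7 and 1 Il2rb UMIs) numbered 43, 1506 and 1302. Whether they lie outside the T lineage was not tested.

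Kit was the most often detected of the 3 genes in every run. A Kit UMI was found in 199 of 5516 cells of the first run (3.61%, 3.13 to 4.13), in 845 of 8852 cells of the second (9.55%, 8.94 to 10.2) and in 1407 of 7511 cells of the third (18.7%, 17.9 to 19.6). Summed over cells, the Kit level was 5.60, 19.4 and 28.7 CPM, and none of the 3 intervals on the shares overlapped. The order was kept at 2000 UMIs per cell, where Kit was found in 1.51%, 3.01% and 4.44% of cells. Few cells held more than 1 Kit molecule, with 21, 137 and 473 cells at 2 or more UMIs and a maximum of 3, 5 and 11.

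Cd34 was rarer and did not follow the order of Kit. It was found in 34 cells of the first run (0.616%), 421 of the second (4.76%, 4.32 to 5.22) and 294 of the third (3.91%, 3.49 to 4.38). Its level was 0.879, 14.5 and 8.72 CPM, so that both its share and its level were highest in the DN1 + DN2 sort. At 2000 UMIs per cell the shares were 0.218%, 1.76% and 1.01%, in the same order. Cd34 reached 17 UMIs in a single cell of the second run and 15 in 1 cell of the third.

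Flt3 was the rarest member and was close to the limit of detection in the first run. It was found in 2 cells of the first run (0.0363%), 27 of the second (0.305%, 0.201 to 0.444) and 64 of the third (0.852%, 0.657 to 1.09). The level was 0.101, 0.779 and 1.201 CPM. At 2000 UMIs per cell Flt3 remained in 8 and 13 cells of the second and the third runs and in 0 of 5516 cells of the first, which allows a share of up to 0.0544%. Il2ra, by contrast, was found in 45.9%, 48.8% and 56.1% of cells, at 127, 220.0 and 277.6 CPM.

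**Figure D1:**
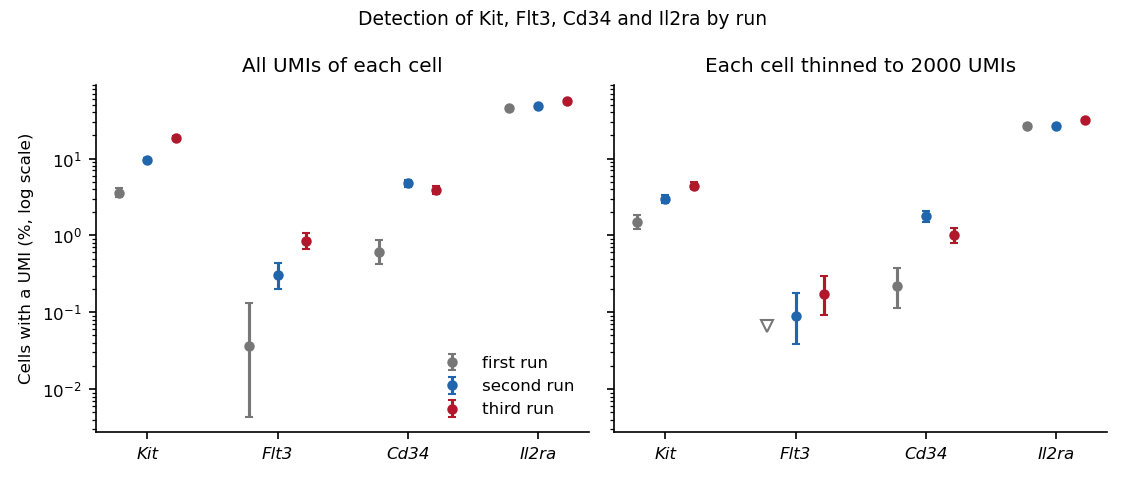
Share of cells with at least 1 UMI of Kit, Flt3, Cd34 and Il2ra (y axis, percent, log scale) in each run, with all UMIs and at 2000 UMIs per cell; bars are exact 95% intervals and an open triangle is the upper limit where no cell had a UMI. Kit was at 3.61%, 9.55% and 18.7% in the first, second and the third runs, Cd34 was highest in the second run at 4.76%, and Flt3 had no interval above 1.09%.

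NK-type cells were taken as a class for comparison of Cd34 and Flt3, though the class may hold T lineage cells as well. For Kit they are no background class, since some clusters with NK or innate genes among their leading genes held Kit, as described further on. In the second run a Kit UMI was found in 54 of 1506 NK-type cells (3.59%, median 2910.5 UMIs per cell), against 9.55% of all cells (median 4844). In the third run it was found in 110 of 1302 (8.45%, median 6445), against 18.7% of all cells (median 8507). Cd34 was found in 1.53% and 1.08% of NK-type cells, and Flt3 in 0 of 1506, which allows up to 0.199%, and in 1 of 1302. After thinning, the NK-type shares were 1.26% and 2.07% for Kit and 0.664% and 0.154% for Cd34. In the first run Kit was found in 4 of 43 NK-type cells (9.30%, 2.59 to 22.1), an interval that holds the 3.61% of all cells. Kit differed between clusters of that run beyond counting error, from 3 of 578 cells (0.519%, 0.107 to 1.51, median 12215.5 UMIs) in a cluster led by Ube2c and Kpna2 to 16.3% of 147 cells in a cluster led by Lyl1 and Napsa.

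Cd34 was more frequent in cells with Flt3 than without it in the second and the third runs. Of cells with a Flt3 UMI, 23 of 27 in the second run also had Cd34 (85.2%, 66.3 to 95.8), against 4.51% of cells without Flt3. In the third run these values were 35 of 64 (54.7%, 41.8 to 67.2) and 3.48%. Kit was found in 13 of the 27 (48.2%) and 36 of the 64 (56.3%), against 9.43% and 18.4% of cells without Flt3. Inside the cluster where all 3 genes were highest, described further on, Cd34 was found in 23 of 26 Flt3+ cells of the second run (88.5%, against 71.7%). In the third run it was found there in 29 of 40 (72.5%, against 61.1%), and the intervals overlapped in both runs. Kit was found there in 13 of 26 Flt3+ cells of the second run, against 47.79% of Flt3- cells. In the third run it was found in 27 of 40 (67.5%, against 79.81%), again with overlapping intervals in both runs. No excess of Kit with Flt3 was thus detectable inside the cluster. Outside the cluster Kit was found in 9 of 24 Flt3+ cells of the third run (37.5%, against 16.65%). The 1 Flt3+ cell outside it in the second run had no Kit UMI. Flt3+ cells were deeper, with medians of 11318 against 4830 UMIs in the second run and 13472.5 against 8496 in the third. After thinning to 2000 UMIs, Cd34 was found in 6 of 8 Flt3+ cells of the second run (against 1.70% of Flt3- cells) and 1 of 13 of the third (against 0.993%, with an interval of 0.195 to 36.0 on the former). Kit was found in 0 of 8 (interval up to 36.9%, against 3.01%) and 2 of 13 (interval from 1.92%, against 4.42%), so no association of Kit or, in the third run, of Cd34 with Flt3 was detectable at that depth. Read the other way, Flt3 was found in 23 of 421 Cd34+ cells of the second run (5.46%) and 35 of 294 of the third (11.9%), and in 1.54% and 2.56% of Kit+ cells. Most cells with Cd34 or Kit thus had no Flt3 UMI, at a depth where Flt3 itself was rarely above 1 molecule (9 and 23 cells at 2 or more).

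Kit was more frequent in Cd34+ than in Cd34- cells in every run. Kit was found in 6 of 34 Cd34+ cells of the first run (17.7%, against 3.52% of Cd34- cells), 149 of 421 of the second (35.4%, against 8.26%) and 214 of 294 of the third (72.8%, against 16.5%). At 2000 UMIs per cell the share was 1 of 12 (8.33%, 0.211 to 38.5, against 1.49%) in the first run. It was 17 of 156 (10.9%, against 2.86%) in the second run and 25 of 75 (33.3%, against 4.14%) in the third. Inside the cluster where all 3 genes were highest, Kit was found in 94 of 185 Cd34+ cells of the second run (50.8%, against 40.3%). In the third run it was 131 of 156 (83.97%, against 67.39%). The intervals overlapped in the second run only. Outside it the shares were 23.31% against 7.999% and 60.14% against 15.87%. At 2000 UMIs the inside shares were 16.25% against 15.7% and 41.18% against 23.86%. The outside shares were 5.263% against 2.604% and 16.67% against 3.602%. Only the last pair had intervals without overlap. The share of cells with Cd34 climbed with the number of Kit molecules. Over cells with 0, 1, 2 and at least 3 Kit UMIs it was 3.40%, 13.8%, 31.2% and 60.7% in the second run. In the third run it was 1.31%, 8.14%, 56 of 280 cells and 42.5%. Depth rose with Kit as well, from a median of 4532 UMIs at 0 Kit UMIs to 8761 at 3 or more in the second run and from 7794.5 to 14728 in the third. Thinned to 2000 UMIs, Cd34 was found in 1.62%, 5.86% and 2 of 10 cells with 0, 1 and 2 Kit UMIs in the second run. In the third run it was found in 0.701%, 7.12% and 13.3%, and in 0 of 6 cells with 3 or more, so the difference between 0 and 1 Kit UMI was present at both depths.

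With all UMIs, Il2ra split the 3 genes. Kit+ cells had an Il2ra UMI more often than Kit- cells, with 126 of 199 (63.3%, against 45.3%) in the first run, 612 of 845 (72.4%, against 46.3%) in the second and 1099 of 1407 (78.1%, against 51.0%) in the third. The direction held at 2000 UMIs per cell, at 38.6%, 38.4% and 36.9% of Kit+ cells against 26.5%, 26.0% and 31.3% of Kit- cells. In the third run the intervals overlapped at that depth (31.65 to 42.31 and 30.19 to 32.36). Flt3+ cells went the other way in the third run, with Il2ra in 13 of 64 (20.3%, 11.3 to 32.2) against 56.4% of Flt3- cells. In the second run the Flt3+ share was 11 of 27 (40.7%, 22.4 to 61.2) against 48.8%, a difference within its interval. At 2000 UMIs Il2ra remained in 0 of 8 Flt3+ cells of the second run (interval up to 36.9%, against 26.4% of Flt3- cells). In the third run it remained in 1 of 13 (0.195 to 36.0, against 31.6%), so no difference for Flt3 was detectable at that depth.

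For Cd34 the answer depended on depth. With all UMIs, Il2ra was found in 25 of 34 Cd34+ cells of the first run (73.5%, against 45.8% of Cd34- cells), 276 of 421 of the second (65.6%, against 47.9%) and 202 of 294 of the third (68.7%, against 55.6%). At 2000 UMIs per cell it was found in 6 of 12 against 26.6% in the first run, in 24.4% against 26.4% in the second and in 17.3% against 31.7% in the third. At that depth the interval of the Cd34+ share in the second run (17.85 to 31.87) held the Cd34- share, so no difference was detectable there. In the third run the intervals did not overlap (9.57 to 27.8 and 30.6 to 32.7). The sign thus turned in the third run when cells were brought to equal depth. Since the direction depended on depth and run, no order of Cd34+ and Cd34- cells is read from these shares.

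**Figure D2:**
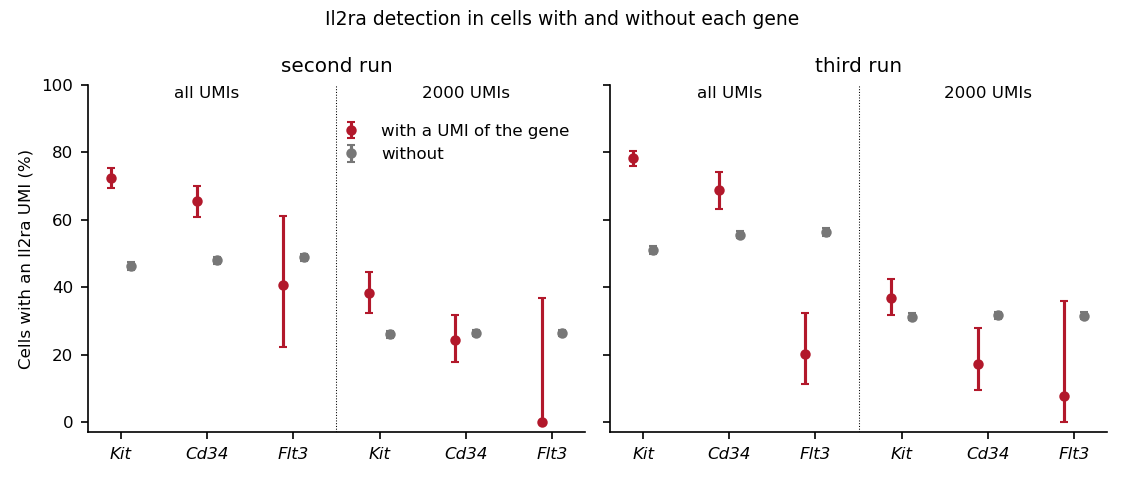
Share of cells with an Il2ra UMI (y axis, percent) among cells with and without a UMI of Kit, Cd34 or Flt3. The second and the third runs are shown, with all UMIs and at 2000 UMIs per cell, and bars are exact 95% intervals. Kit+ cells lie above Kit- cells in both runs at both depths, with overlapping intervals at 2000 UMIs in the third run. Flt3+ cells of the third run lie below at 20.3% against 56.4% with all UMIs. Cd34+ cells lie above with all UMIs and below at 2000 UMIs in both runs, with overlapping intervals at 2000 UMIs in the second run.

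Cells with all 3 members were few. Kit, Flt3 and Cd34 were found together in 0 cells of the first run, in 11 of the second (7 with Il2ra and 4 without) and in 29 of the third (5 with Il2ra and 24 without). The most common pattern among Kit+ cells was Kit with Il2ra and neither of the others, at 122, 511 and 951 cells. Kit alone, without Flt3, Cd34 or Il2ra, was found in 71, 183 and 235 cells. Kit with Cd34 and Il2ra but no Flt3 was found in 4, 94 and 140 cells, and Kit with Cd34 only in 2, 44 and 45. Cd34 without Kit or Flt3 was found in 21, 172 and 57 cells with Il2ra and in 7, 88 and 17 cells without. A cell with no UMI of a gene may still express it at these depths.

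Each run was clustered without Kit, Flt3, Cd34 and Il2ra among the variable genes, giving 15, 20 and 20 clusters, which are called here by their leading genes. All 3 members were highest in 1 cluster of the second run, led by Elane, Prtn3, Mpo, Ctsg and Ifitm1 (252 cells, 2.85% of the run, median 8214.5 UMIs). Elane, Prtn3, Ctsg and Mpo are granule enzymes of myeloid progenitors. A leading gene describes the sum over a cluster and need not be present in most of its cells. Kit+ cells of the second run detected after thinning had no Elane UMI, though 15.04% of them were in this cluster. With all UMIs, Kit+ cells with Cd34 in that run did have Elane. The share of cells with Elane in this cluster was not tested. Kit was at 83.4 CPM there (72.1 to 95.95), Cd34 at 206.0 (188.0 to 225.2) and Flt3 at 17.0 (12.2 to 23.2). Of its cells, 121 had Kit (48.0%), 185 had Cd34 (73.4%) and 26 had Flt3 (10.3%). These 26 cells were 96.3% of the Flt3+ cells of the run, and the 185 were 43.9% of its Cd34+ cells.

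The third run had a matching cluster led by Elane, Prtn3, Ctsg, Mpo and Ifitm1 (248 cells, 3.30% of the run, median 13094 UMIs). Kit was at 156.0 CPM there (143 to 170), Cd34 at 131.5 (120 to 144) and Flt3 at 19.5 (15.1 to 24.8). Kit was found in 193 of its cells (77.8%), Cd34 in 156 (62.9%) and Flt3 in 40 (16.1%), the last being 62.5% of the Flt3+ cells of the run. In both runs the interval of this cluster did not overlap that of the next cluster for any of the 3 genes. Between the runs the balance differed, with Cd34 above Kit in the second and Kit above Cd34 in the third. Il2ra was at 175 and 247 CPM in the 2 clusters, within the range of other clusters.

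Below these clusters the members separated. In the second run a cluster led by Lyl1, Adgrg3 and Cpa3 (610 cells) had Kit at 36.5 CPM, Cd34 at 20.5 CPM, Il2ra at 318 CPM and Flt3 at 0. A cluster led by Trpm1, Tnni1, Fcrl1, Tnfrsf9 and Klrb1a (144 cells) had Kit at 40.9 CPM (28.2 to 57.5) with Cd34 at 1.24 and Il2ra at 9.92 CPM. In the third run a cluster led by Eomes, Klra4, Ncr1, Klrb1a and Tnni1 (254 cells) likewise had Kit at 48.5 CPM, in 57 cells, with Il2ra at 18.1 CPM. Its Cd34 level of 6.80 CPM came from 1 cell. Kit was thus also found in these clusters, which had NK or innate lymphocyte genes among their leading genes and little Cd34 or Il2ra RNA. The Kit interval of both clusters overlapped that of the cluster ranked next below. Kit was lower in the other clusters with NK receptor genes among their leading genes. In the second run it was at 0.789 CPM in 883 cells, 2.27 in 919 and 16.1 in 192. In the third run it was at 1.24 CPM in 699 cells, 2.18 in 332 and 17.75 in 40.

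Other Kit-bearing clusters of the third run had much Il2ra. A cluster with Gm19696, Dyrk4 and Cpa3 among its leading genes (346 cells) had Kit at 59.8, Cd34 at 4.83 and Il2ra at 450 CPM, and one led by Ung and Socs2 (702 cells) had 43.8, 4.88 and 437 CPM. Flt3 outside the Elane cluster was found mostly in a cluster led by Jchain, Fcrl5 and Ms4a1 (288 cells), genes of the B lineage, at 7.85 CPM in 13 cells, which were 20.3% of the Flt3+ cells of the run. In the first run the highest Kit and Cd34 levels were in a cluster led by Lyl1, Napsa and Adgrg3 (147 cells), at 34.8 CPM (22.9 to 50.6) and 18.0 CPM (9.85 to 30.2), with Il2ra at 329.5 CPM and Flt3 at 0. Both Flt3+ cells of that run were in a cluster of 12 cells led by Cd209a and Ms4a1.

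**Figure D3:**
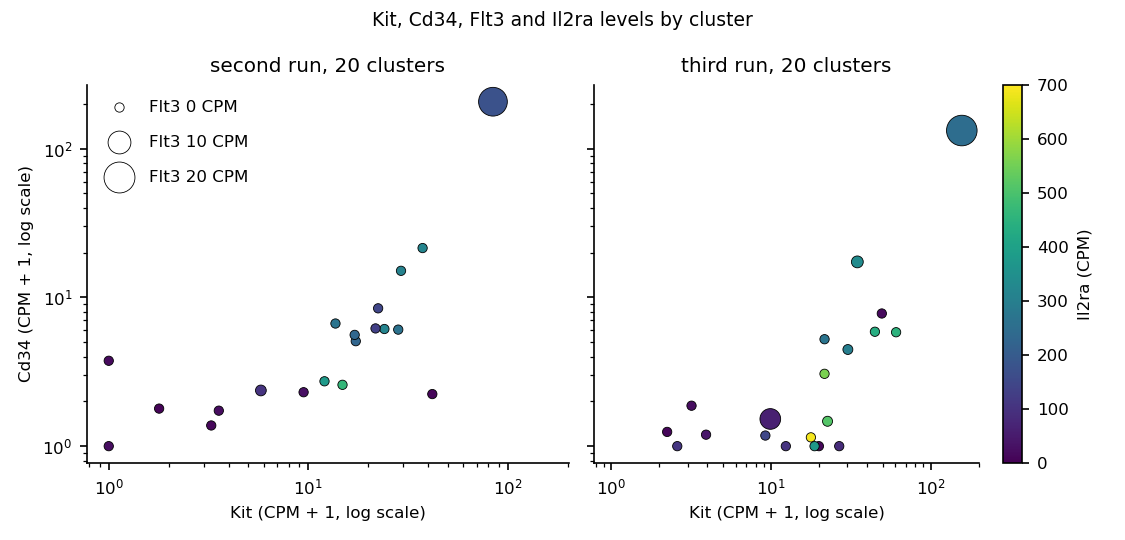
Kit against Cd34 level by cluster (both axes CPM plus 1, log scale) for the 20 clusters of the second and of the third run; the size of a point is the Flt3 level and its colour the Il2ra level, both in CPM. One cluster in each run, led by Elane, Prtn3 and Mpo or Ctsg, stands at the upper right with Flt3 at 17.0 and 19.5 CPM, and clusters with Kit at 40.9 and 48.5 CPM have Il2ra at 9.92 and 18.1 CPM.

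Within the Elane cluster of the third run, cells with Flt3 or Cd34 were less often Il2ra+. Il2ra was found in 7 of 40 Flt3+ cells (17.5%, 7.34 to 32.8) against 69.7% of Flt3- cells, and in 82 of 156 Cd34+ cells (52.6%) against 76.1% of Cd34- cells. In the second run the values were 10 of 26 (38.5%) against 51.8% for Flt3, and 50.3% against 50.8% for Cd34. Outside this cluster, Cd34+ cells were more often Il2ra+ with all UMIs, at 183 of 236 (77.5%, against 47.9%) in the second run and 120 of 138 (87.0%, against 55.3%) in the third. At 2000 UMIs per cell the outside shares were 34.2% against 26.5% and 29.2% against 31.6%, and the inside shares 12 of 80 cells against 24.4% and 11.8% against 34.5%. The difference for Cd34 inside the cluster of the third run was present at both depths.

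Across the clusters of a run the 3 members moved together to different degrees. Over the 20 clusters of the second and the 20 of the third run, the correlation of log2(CPM + 1) was 0.709 and 0.709 for Kit with Cd34, 0.719 and 0.618 for Flt3 with Cd34, and 0.356 and 0.373 for Kit with Flt3. With Il2ra it was 0.64 and 0.503 for Kit, 0.529 and 0.275 for Cd34, and 0.111 and 0.079 for Flt3. Clusters of a run share their library, and these values are descriptions. The genes most like Kit were Angpt1 (0.885 and 0.859), Stard10, Nfe2, Zfp385a and Emilin1. The genes most like Flt3 were Mpo (0.931 and 0.804), Lst1, Tyrobp, Irf8 and Erp29, and those most like Cd34 were Adgrg3 (0.895 and 0.821), Ifitm1, Ier3, Sirt3 and Dym. Flt3 was at 0 CPM in most clusters of both runs, and below the Elane cluster its next levels were 0.685 and 7.85 CPM. All correlations with Flt3 thus rest mainly on the Elane cluster, of which Mpo is a leading gene.

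The genes of the Flt3+ cells are given as levels only, since no more than 1 run had 20 Flt3+ cells among its Kit+ cells. In the 27 Flt3+ cells of the second and the 64 of the third run, Mpo was at 255.6 and 178 CPM, against 5.53 and 26.2 CPM in cells with Kit but not Cd34. These levels are relative to all genes of a run, and those of the edgeR comparisons to the genes that the 3 runs share. Spi1, the gene of PU.1, was at 196 and 165 CPM, Irf8, a factor of dendritic and myeloid progenitors, at 243 and 423, and Bcl11a, a factor of lymphoid progenitors, at 121.5 and 231. Bcl11b, the factor of T lineage commitment, was at 56.1 and 94.6 CPM, against 368 and 614 CPM in cells with Kit but not Cd34. The B cell receptor gene Cd79a was at 0 CPM in the 27 cells and at 301.5 CPM in the 64. These levels are sums over cells, and a minority of the 64 lay in the cluster led by Jchain, Fcrl5 and Ms4a1. The Cd79a level thus does not show that Flt3+ cells of the third run carried B lineage RNA in general. The other levels of the 64 cells include that minority too. Mpo was also high in Kit+ cells with Cd34, at 179.8 and 173.2 CPM in the second and the third runs (edgeR comparison below). High Mpo was thus not particular to Flt3+ cells.

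To ask which genes went with Kit in all sorts, counts were summed per run over cells with and without a Kit UMI at 2000 UMIs per cell (83, 266 and 331 Kit+ cells) and compared with edgeR, with the run as a block. Of 12008 genes tested, 599 passed an adjusted p of 0.05 (4.99%), 287 higher in Kit+ cells (2.39%) and 312 lower (2.6%). The count was 135 with DESeq2, 364 without the Elane clusters, and 1164, 315 and 138 without the first, the second and the third run. Cd34 was at 2.37 against 0.873 CPM in the first run, 48.6 against 13.4 in the second and 39.5 against 7.15 in the third. It was higher in Kit+ cells in all 3 runs, with a log2 fold change of 2.13 ± 0.18 (SE, edgeR quasi-likelihood test, Benjamini-Hochberg adjusted p = 8.3e-10). Without the clusters led by Elane, Prtn3 and Mpo the difference was 1.16 (edgeR adjusted p = 0.0176). Flt3 was at 0 against 0.103, 1.11 against 0.773 and 3.80 against 1.07 CPM, and did not pass (1.47 ± 0.52, edgeR adjusted p = 0.12), though it did with detection at all UMIs (2.22, edgeR adjusted p = 0.0023). Il2ra was at 263 against 127, 264 against 220.0 and 319 against 277 CPM, and did not pass either (0.36 ± 0.11, edgeR adjusted p = 0.067), but passed without the Elane clusters (0.45, edgeR adjusted p = 0.0062). Median depth was 4469, 6066.5 and 10444 UMIs in Kit+ cells and 6034, 4802.5 and 8482 in Kit- cells. Before thinning 199, 845 and 1407 cells had a Kit UMI, so part of the Kit- arms held Kit UMIs in the deposited counts that were summed. The p-values concern the difference between arms within runs, over 3 libraries of different sorts, and both arms of a run are cells of 1 library. The fit had 2 residual degrees of freedom, against 25.6 lent by the trend over all genes, so its errors rest mostly on that trend.

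Progenitor transcription factors rose with Kit. Of 17 tested, 12 were higher and 0 lower, with a median log2 fold change of 1.14 against -0.03 over all genes. Spi1 was higher in all 3 runs (54.2 against 17.7 CPM in the second and 51.4 against 14.1 in the third, 1.77 ± 0.14 on the log2 scale), but did not pass without the Elane clusters (0.69, edgeR adjusted p = 0.13). Lmo2, Gfi1b and Tal1, factors of stem, erythroid and megakaryocyte progenitors, were higher by 1.68, 1.84 and 1.96, each in the second and the third runs with 0 CPM in the first run's Kit+ cells, and all 3 turned negative without the Elane clusters. Mast cell-type genes had 2 of 5 higher, the protease gene Cpa3 (1.08 ± 0.14) and the proteoglycan gene Srgn (0.42 ± 0.11). Of 22 tested genes of Kit and Flt3 signalling only Plcg2, a phospholipase, rose (0.85 ± 0.19), with a list median of 0.13.

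Of 8 granulocyte and monocyte genes tested, 6 were higher and 1 lower, with a median of 2.55. Mpo was at 40.9 against 11.6 CPM in the second run and 143 against 8.33 in the third (3.201 ± 0.26), but its difference was -0.18 (edgeR adjusted p = 0.96) without the Elane clusters. The summed level of the 12 listed genes was lower in Kit+ cells of the second run (139.8 against 268 CPM) and higher in those of the third (517 against 154 CPM). Elane was at 0 against 6.46 CPM in the second run and 91.7 against 1.40 in the third, so the runs went opposite ways and the call rested on the third. Prtn3 was at 1.11 against 5.77 and 70.9 against 1.59 CPM, and without the third run it was -2.42. Among other progenitor surface genes 4 of 15 were higher and 4 lower. Cd33 (2.15 ± 0.39) and Cd93 (0.74 ± 0.14) were higher, while Ly6a (-0.83 ± 0.13), the gene of Sca-1, and Il7r (-0.74 ± 0.18), the interleukin-7 receptor, were lower.

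T lineage genes fell more often than they rose with Kit, with 10 of 24 lower, 1 higher and a median of -0.24. Their summed level was higher in Kit+ cells of the first run, at 8404 against 7380 CPM. It was lower in those of the second (6853 against 8024 CPM) and the third (6031 against 7100 CPM). The kinase gene Zap70 (-1.29 ± 0.13), Cd2 (-1.15 ± 0.14), Cd7 (-1.02 ± 0.14) and Cd5 (-0.91 ± 0.17) were the lowest, and Cd7 was higher in the first run's Kit+ cells. Genes of NK and innate lymphocytes had 8 of 12 lower (median -1.49), among them Klrb1c, the gene of NK1.1 (-2.36 ± 0.19), Gzmb, Zbtb16 and Tbx21. Genes of γδ thymocytes had 5 of 9 lower (median -0.63), dendritic cell genes 1 of 6, with 1 other higher (median -0.32) and erythroid genes 3 of 3 (median -3.21, with a summed level of 9.39 against 115 CPM in the second run but 2.53 against 2.94 in the third), while 0 of 18 cell cycle genes passed (median -0.19). The summed level of the 12 NK and innate genes was 854 against 875.7 CPM, 895.8 against 1731 and 929 against 1411 CPM. That of the 9 γδ thymocyte genes was higher in Kit+ cells of the first run, at 885 against 716 CPM. It was 752.7 against 847.2 CPM in the second and 606.9 against 864.3 CPM in the third. NK-type cells were 2.41%, 7.14% and 8.16% of Kit+ cells and 0.755%, 17.3% and 17.9% of Kit- cells, and Elane cluster cells were 15.04% and 20.5% of Kit+ cells of the second and the third runs and 2.47% and 2.52% of Kit- cells. The part of these cells in the lower genes was not tested.

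The largest single differences carried both kinds of genes. Ifitm1, an interferon-induced membrane protein gene, was at 96.2 against 20.1 and 164 against 26.0 CPM in the second and the third runs (2.45 ± 0.12), and Cd34 came next. Car2, Bex6, Gm19590, Ier3 and Lst1 were also among the 8 largest, between 1.76 and 2.001. The lower genes were led by the immunoglobulin genes Jchain (-5.10) and Igkc (-4.21). Jchain led a cluster of 288 cells in the third run, with Kit at 8.90 CPM. Igkc was among the leading genes of a cluster of 21 cells in the second run, with Kit at 0 CPM. The part of these cells in the Jchain and Igkc differences was not tested. The NK receptor genes Klra1 (-3.38) and Klra9 (-3.07) came next, close paralogs whose reads may be split with uncertainty, followed by Klrb1c, Gzmb, Fgl2 and Trac.

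Among Kit+ cells, those with Cd34 were next compared with those without, in the second and the third runs (149 and 214 against 696 and 1193 cells, with all UMIs). Of 10463 genes, 1875 passed (17.9%), 1009 higher in Cd34+ cells (9.64%) and 866 lower (8.28%). The count was 534 with DESeq2 and 492 without the Elane clusters. The fit had 4 summed libraries and 1 residual degree of freedom, so its errors rest on the trend over all genes, and median depth was 9729 against 7382.5 UMIs in the second run and 16819 against 12860 in the third. Flt3 was at 10.9 against 0.359 CPM and 13.1 against 0.691 CPM, a log2 fold change of 4.40 ± 0.43 (edgeR adjusted p = 1.9e-22). The Elane clusters held 100% and 75% of the cells with both Kit and Flt3, and Flt3 gave no result without these clusters. Il2ra was at 236.7 against 264.7 CPM and 263.5 against 338.8 CPM, lower by a small amount (-0.23 ± 0.08, edgeR adjusted p = 0.030). The Il2ra difference did not pass with DESeq2 (adjusted p = 0.53) and was 0.05 (edgeR adjusted p = 0.87) without the Elane clusters, whose cells were 63.1% and 61.2% of the Cd34+ and 3.88% and 5.20% of the Cd34- cells.

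Progenitor factors were higher with Cd34 and T lineage genes lower. The lists were not counted without the Elane clusters, whose cells were 63.1% and 61.2% of the Cd34+ cells. Of the named genes tested without these clusters, 23 kept their result, 6 no longer passed and 7 changed sign. Of 16 progenitor factors tested 14 were higher and 0 lower (median 2.31, against -0.01 over all genes), among them Lmo2 (3.84 ± 0.27), Meis1 (3.46 ± 0.57), Hoxa9 (2.90 ± 0.26) and Gfi1b (2.71 ± 0.40). Of 24 T lineage genes 19 were lower and 1 higher (median -1.20). Cd3g, a chain of the CD3 complex, was at 398.5 against 1799 CPM in the second run and 282.8 against 1437 in the third (-2.22 ± 0.06). Lef1 (-2.60 ± 0.18), Rag1, a subunit of the recombinase of antigen receptor genes (-2.50 ± 0.21), and Ptcra, the pre-T cell receptor α chain (-2.41 ± 0.19), were also lower. All 9 γδ thymocyte genes were lower (median -1.70), with Id3 at -2.77 ± 0.22 and Trgv2 at -2.73 ± 0.20.

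Granulocyte and monocyte genes gave 10 of 10 higher (median 2.05). Mpo was at 180 against 5.57 and 173 against 26.4 CPM (3.37 ± 0.12), and Csf1r, the receptor of macrophage colony-stimulating factor, was higher by 4.44 ± 0.58. Elane was at 116 against 0.180 CPM in the second run and at 13.9 against 19.9 CPM in the third, so its direction was not shared. The summed level of the 12 listed genes was 616 against 84.4 CPM and 438.5 against 118.8 CPM. Mast cell-type genes had 3 of 4 higher, Fcer1g (1.44 ± 0.13), Srgn (0.65 ± 0.07) and Hdc (2.27 ± 0.46).

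Genes of Kit and Flt3 signalling split, with 5 of 22 higher and 4 lower (median 0.00). Plcg2 (1.67 ± 0.17), the kinase gene Lyn (1.29 ± 0.20) and the adaptor gene Sh2b3 (0.74 ± 0.23) were higher, and Socs2, a suppressor of cytokine signalling, was lower (-0.91 ± 0.18, but 0.07 without the Elane clusters). Progenitor surface genes gave 5 of 15 higher and 5 lower, with Cd33 (3.49 ± 0.30) and Cd44 (1.49 ± 0.18) higher and Ccr9 (-2.20 ± 0.16) and Thy1 (-1.68 ± 0.08) lower. Of 18 cell cycle genes 10 were lower and 0 higher (median -0.37), among them Ccnb1 (-0.84 ± 0.13) and Rrm2 (-0.82 ± 0.10). NK and innate genes had 3 of 9 lower and 2 higher (median -0.38), with Gzma at -2.44 ± 0.10 and Ccl5 at 1.01 ± 0.12 (but -0.89 without the Elane clusters, edgeR adjusted p = 0.0082), dendritic cell genes 3 of 5 lower and 1 higher (median -0.69), and the 1 erythroid gene tested did not pass. Of the largest differences, Spns2 (4.19), Ffar2 (4.01), Ccl3 (3.64, but -0.40 without the Elane clusters), Ifitm1 (3.41), Fgd2 (3.24) and Tyrobp (3.21) were higher and Pdcd1 (-3.11), Sh2d1a (-2.78) and Dgkeos (-2.62) lower.

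Last, Kit+ cells with Il2ra were compared with Kit+ cells without it, both detected at 2000 UMIs per cell (32, 102 and 122 against 51, 164 and 209 cells). Of these Kit+ cells, 31, 97 and 96 had no Il2ra UMI before thinning. Part of the arm without Il2ra thus held Il2ra UMIs in the deposited counts that were summed. Of 7459 genes, 153 passed (2.05%), 53 higher (0.711%) and 100 lower (1.34%) in Il2ra+ cells. The count was 12 with DESeq2, 17 without the second run and 6 without the third. This fit had 2 residual degrees of freedom, against 24.8 lent by the trend over all genes. Cd34 was at 0 against 3.53 CPM in the first run, 29.6 against 60.9 in the second and 20.2 against 50.5 in the third. It was lower in all 3 (-1.22 ± 0.22, edgeR adjusted p = 0.0011), but did not pass without the second run (edgeR adjusted p = 0.29) or without the third (edgeR adjusted p = 0.85), nor with DESeq2. Flt3 was too low to be tested in this comparison. Elane cluster cells were 7.84% and 16.4% of Il2ra+ and 19.5% and 23.0% of Il2ra- cells in the second and the third runs.

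T lineage genes gave 7 of 23 higher and 2 lower with Il2ra (median 0.27, against -0.01 over all genes). Rag1 was at 50.7 against 42.4, 19.8 against 13.6 and 114 against 40.2 CPM (1.28 ± 0.20), and Notch3 was higher by 1.04 ± 0.24, while Cd7 (-2.10 ± 0.24) and Cd2 (-2.003 ± 0.34) were lower. Notch1 was higher (0.70 ± 0.12) and Ccr9 (-1.12 ± 0.16) and Ly6a (-0.66 ± 0.18) lower among 12 progenitor surface genes. Of 10 progenitor factors 3 were lower and 0 higher (median -0.16), namely Mef2c (-1.44 ± 0.18), Spi1 (-0.90 ± 0.21, but 0.11 without the Elane clusters) and Hhex (-0.83 ± 0.21). Granulocyte and monocyte genes gave 3 of 3 lower (median -2.21), among them Mpo, at 9.88 against 60.9 CPM in the second run and 29.3 against 208 in the third (-2.79 ± 0.20). NK and innate genes had 5 of 6 lower (median -1.53) and γδ thymocyte genes 5 of 8 (median -1.20), with Etv5 at -2.92 ± 0.53 and Maf at -2.37 ± 0.30.

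Of 20 genes of Kit and Flt3 signalling, Socs2 was higher (0.93 ± 0.24) and Dok2, an adaptor gene, lower (-0.67 ± 0.18), with a median of -0.08. Ccnb2 was the 1 cell cycle gene of 18 that passed (-0.70 ± 0.16, median of the list -0.11), but it was 0.33 (edgeR adjusted p = 0.44) with detection at all UMIs, and none of 3 mast cell-type or 2 dendritic cell genes passed, and no erythroid gene was tested. The summed level of the 12 NK and innate genes was 759.5 against 900.3, 653 against 1052 and 538.7 against 1152 CPM. NK-type cells were 3.92% and 3.28% of Il2ra+ and 9.15% and 11% of Il2ra- cells in the second and the third runs. Of the largest differences, the imprinted RNA H19 (1.99), Pld4, Ifit1, Hdac4, Khdc1a and Epcam were higher, and Klrd1 (-2.57), Camk4 (-2.54), Ctss (-2.50), Il2rb (-2.45) and Ly6c2 (-2.21) lower.

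**Figure D4:**
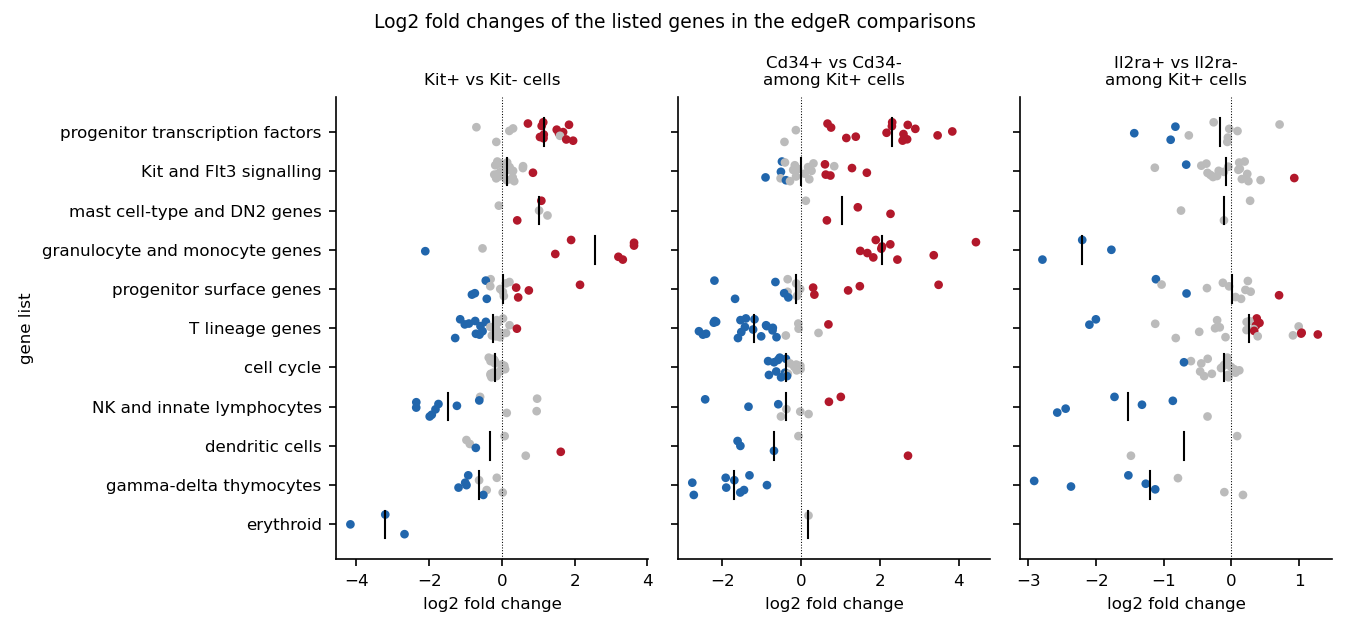
Log2 fold change (edgeR) of each tested gene of the gene lists in the comparison of Kit+ with Kit- cells, of Cd34+ with Cd34- cells among Kit+ cells and of Il2ra+ with Il2ra- cells among Kit+ cells; red and blue points passed an adjusted p of 0.05 (higher and lower), grey points did not, and black lines are medians. Progenitor transcription factors have medians of 1.14, 2.31 and -0.16 and T lineage genes of -0.24, -1.20 and 0.27 in the 3 comparisons.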

How the data were processed

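The authors deposited raw counts of UMIs per gene and cell for 3 libraries made with 10x 3′ chemistry and Cell Ranger on mm10. The submitters' processing notes also name R 3.6.3 and Seurat 2.3, which were not used here. The totals were 39947415, 52797915 and 98533329 UMIs, and 5516 of 5527, 8852 of 8887 and 7511 of 8869 barcodes passed the limits of 500 to 5000 genes and 7% mitochondrial counts. No doublets were removed, apart from an alternative without the 8% of cells with the highest Scrublet scores. A cell was called + with at least 1 UMI, with all UMIs or after thinning to 2000.

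Clusters (scanpy 1.11.5, 2000 variable genes, 15 components, 20 neighbours, Leiden resolution 1.0) were described by their leading genes of at least 50 CPM, and genes like a member were ranked over genes of at least 10 CPM. Counts summed per run and arm (at least 20 cells) were tested with edgeR 4.0.16 in R 4.3.3 (filterByExpr, TMM, quasi-likelihood, two-sided, Benjamini-Hochberg), tested first on simulated data. The run was the block in every fit, since both arms of a run are cells of the same library. DESeq2 1.42.0 was an alternative. The planned detection at 2000 UMIs left 1 run for Cd34 among Kit+ cells, so all UMIs were used there, a choice made after the data were seen. Flt3 among Kit+ cells could not be tested. The leaving out of clusters was also added after the data were seen.

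The genes named were the members, the 8 largest differences in each direction of at least 20 CPM with 1 direction in every run, and up to 4 examples a list. Members and lists were chosen with earlier results of these data known. Results on a B cell class and list are not reported here.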

Additional observations from a re-analysis of the deposited data

Results flagged for a closer look

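The third run held 552 barcodes with more than 5000 genes (median 32188.5 UMIs). Of the comparisons, they entered only the shares taken without cell limits. The members were found in them more often than in kept cells. Kit was found in 230 (41.7%, 37.5 to 45.9), Flt3 in 16 (2.90%) and Cd34 in 81 (14.7%), while their levels were 24.9, 1.23 and 12.2 CPM, against 28.7, 1.201 and 8.72 CPM in kept cells. Il2ra was found in 458 of them (83.0%, 194 CPM).

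At 2000 UMIs per cell the share of Il2ra+ cells among Cd34+ minus that among Cd34- cells was 23.4 percentage points for the first run, with 12 Cd34+ cells, and -2.05 and -14.3 for the second and the third runs. The difference between runs was not tested.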

How the results depend on the processing

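Thinned to 2000 UMIs, the percent of Kit+ cells with Il2ra was 38.6, 38.4 and 36.9 in the first, second and the third runs, that with Cd34 6.39 and 7.55 and that with Flt3 0 and 0.604 in the second and the third, and the Il2ra share of Kit+ minus Kit- cells was 12.3 and 5.59 points there. The same difference for Cd34 turned to -2.05 points in the second run and -14.3 in the third. With at least 2 UMIs to call a cell, Kit+ cells had Il2ra in 23.8%, 53.3% and 70.4% of the 3 runs, Cd34 in 0% and 23.4% of the first and second, and Flt3 in 0% and 1.06% of the second and the third. The Il2ra difference was then 0.661 and 21.3 points for Kit in the first and second runs and 4.96 and -5.98 points for Cd34 in the second and the third. Without cell limits the Kit difference in the third run was 29.5 points. The highest cluster level of the first run was 20.3 (resolution 0.5) and 20.6 CPM (Scrublet) for Kit and 9.53 and 9.43 CPM for Cd34, and that of Cd34 in the third run was 144.7 and 148.7 CPM at resolutions 0.5 and 2.0.

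The count of genes for Kit+ against Kit- cells was 135 with DESeq2 (81 higher, 54 lower), 1269 with detection at all UMIs, 330 with detection and sums at 2000 UMIs and 364 without the Elane clusters. For Cd34 among Kit+ cells it was 534 with DESeq2 (310 higher, 224 lower), 570 with sums at 2000 UMIs and 492 without the Elane clusters, and without TMM scaling 897 were higher and 1097 lower. For Il2ra among Kit+ cells it was 12 with DESeq2 (7 higher, 5 lower), 237 with no filter on low counts, 271 with detection at all UMIs and 71 with detection and sums at 2000 UMIs. Leaving out 1 run gave 138 to 1164 genes for Kit (138 without the third run, 315 without the second, 1164 without the first) and 6 to 176 for Il2ra (6 without the third, 17 without the second). Without the replicate block, which pairs the arms of a run, edgeR called 0 genes in all 3 comparisons, with 109, 436 and 48 genes at an unadjusted p under 0.05 against 1715, 2826 and 716 with it.

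Some named genes changed sign. Without the Elane clusters these were Lmo2 (-1.35), Gfi1b (-1.77), Tal1 (-0.40) and Mpo (-0.18) for Kit, Ccl3 (-0.40), Il2ra (0.053), Socs2 (0.066), Ccnb2 (0.03), Mki67 (0.23), Ccl5 (-0.89) and Gzmb (-0.93) for Cd34, and Spi1 (0.11) for Il2ra. Prtn3 ranged from -2.42 without the third run to 5.43 without the second for Kit, and Ccnb2 was 0.33 for Il2ra with detection at all UMIs. The cause was not tested. Flt3 among Kit+ cells, the planned detection at 2000 UMIs for Cd34 among Kit+ cells and leaving out a run there were not run, since fewer than 2 runs were left with 20 cells in each arm. Flt3 was found in 2, 27 and 64 cells of the 3 runs, and in 0, 13 and 36 of their Kit+ cells. It could thus not set the arms of a test among Kit+ cells.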
